A study of Mus musculus with 12 samples.

Results

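The genes described here are 10 members of the Nrf2 antioxidant pathway, namely Nfe2l2, Keap1, Gclc, Gclm, Gsr, Txnrd1, Srxn1, G6pdx, Nqo1 and Hmox1. They were chosen by gene symbol from a table of 55573 genes, and all 10 passed the filter on low counts that left 13836 genes for testing. RNA-sequencing was performed on tumourspheres of the mouse breast tumour lines A1005, A1129 and A1471, to ask how mesenchymal tumour cells respond when Met and FGFR are blocked alone or together. All 3 lines carry MMTV-Metmt;Trp53fl/+;Cre, which is a mutant Met transgene under the MMTV promoter with 1 floxed Trp53 allele and Cre, so the DMSO controls carry these alleles too. Each line was treated for 24 h with DMSO, with 1 µM Crizotinib (a Met inhibitor), with 1 µM PD173074 (an FGFR inhibitor) or with both, termed the combination. Each treatment therefore holds n = 3 libraries, 1 from each line, and no line was sequenced more than once per treatment.

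Nrf2, encoded by Nfe2l2, is a transcription factor that activates genes for the defence against oxidants and electrophiles. Keap1 binds Nrf2 and directs it to degradation, and oxidants or electrophiles modify Keap1 so that Nrf2 accumulates. Because Nrf2 is controlled largely at the protein level, the mRNA level of its targets is the usual readout of its activity. The targets fall into a few branches: synthesis and recycling of glutathione (Gclc, Gclm, Gsr), the thioredoxin branch (Txnrd1, Srxn1), supply of NADPH (G6pdx), reduction of quinones (Nqo1) and breakdown of haem (Hmox1). In breast and other tumours, the pathway is known for protecting cancer cells from oxidative stress and from drugs.

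Total counts ranged from 13031492 to 17750476 per library, and the 10 genes held 176 to 5463 counts each. Levels are given as CPM, counts scaled to one common library total after TMM normalisation. In tissue labelled as breast tumour, the mesenchymal marker Vim was at 1903 to 3204 CPM, whereas another, Cdh2, was at 0 in 6 libraries. Of the epithelial markers, Cdh1 had 0 to 9 counts and Krt5 had 0 in every library, while Krt8 (17 to 611 counts) and Krt18 (53 to 748 counts) were present in all. Of 6 leukocyte markers, Adgre1 was at 0 in 11 libraries and Itgam in 7, Ptprc had 0 to 339 counts and Cd68 had 62 to 439, and the summed level of the 6 was 4.60 to 32.1 CPM with DMSO and 8.53 to 43.1 CPM with the combination. The share of mitochondrial counts was 1.21 to 1.66% in DMSO and single-agent libraries and 1.93 to 2.52% with the combination, and its part in the results below was not tested. These are bulk samples, in which fewer cells of a type and less RNA per cell cannot be told apart.

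Nrf2 acts through the antioxidant response element, and the 9-letter cores searched here, on both strands, were TGACNNNGC and TGAGNNNGC. A second motif, the AP-1 site TGANTCA, shares its first letters with them and can overlap them. RefSeq promoter windows (GRCm38.p6, 250 bases before to 50 after a start) were at hand for 7 of the 10 genes, in 9 windows. Hmox1, Gsr and Gclc had no window, so whether they hold a core was not searched. A core was present in 5 of these windows, those of Nfe2l2, Srxn1, Gclm, G6pdx and the second of 3 Txnrd1 starts, against 27.8% of all 32851 windows of this length. Single motifs occurred in 12.4% (TGACNNNGC), 17.6% (TGAGNNNGC) and 7.81% (TGANTCA) of all windows. A match is a run of letters and no measurement of binding. The stretches below, in the gene's 5′ to 3′ direction, are shown because Nrf2 acts through this element, and the capitals mark the matches. The windows of Nqo1 and Keap1 held no core. A further Srxn1 match past the start and the G6pdx match, which lies in an exon, are not shown.
Nfe2l2, chr2:75704885-75704913, minus strand, upstream of the gene: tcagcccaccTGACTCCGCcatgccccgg
Srxn1, chr2:152105356-152105384, plus strand, upstream of the gene: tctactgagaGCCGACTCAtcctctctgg
Srxn1, chr2:152105469-152105497, plus strand, upstream of the gene: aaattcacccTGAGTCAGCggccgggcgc
Gclm, chr3:122245413-122245441, plus strand, upstream of the gene: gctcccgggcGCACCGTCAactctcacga
Txnrd1, chr10:82859104-82859132, plus strand, in an intron: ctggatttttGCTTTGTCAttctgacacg
In the second Srxn1 stretch the core and an AP-1 site share 7 letters that start 45 bases before the gene's start. Srxn1 held 2 AP-1 matches in its window, and no other window of the 10 genes held one.

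With the combination, 9 of the 10 genes had a negative fitted log2 change, and Hmox1 was the exception. Gsr, which encodes the reductase that regenerates glutathione, stood at 188, 203 and 237 CPM with DMSO in A1005, A1129 and A1471 and fell to 80.1, 72.1 and 48.6 CPM. Hmox1, which encodes the enzyme that opens haem, stood higher in all 3 lines, at 83.6, 162 and 115 CPM against 41.8, 56.6 and 76.2 CPM. The other 8 genes stood between, with fitted log2 changes of −0.67 to −0.14. In the unpaired edgeR fit, 1 of the 10 genes passed an adjusted p of 0.05 (Gsr, lower), against 14.4% of all tested genes, 6.1% higher and 8.28% lower. When the cell line was entered as a block, 7 passed, with Hmox1 higher and Gsr, Gclm, Txnrd1, Nqo1, Srxn1 and G6pdx lower, against 54.8% of all tested genes, 28.6% higher and 26.2% lower. The median log2 change of the 10 genes was −0.52, beside 0.02 for all tested genes. Of the 10 values, 9 were negative, against 6745 of the 13836 tested genes.

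**Figure D1:**
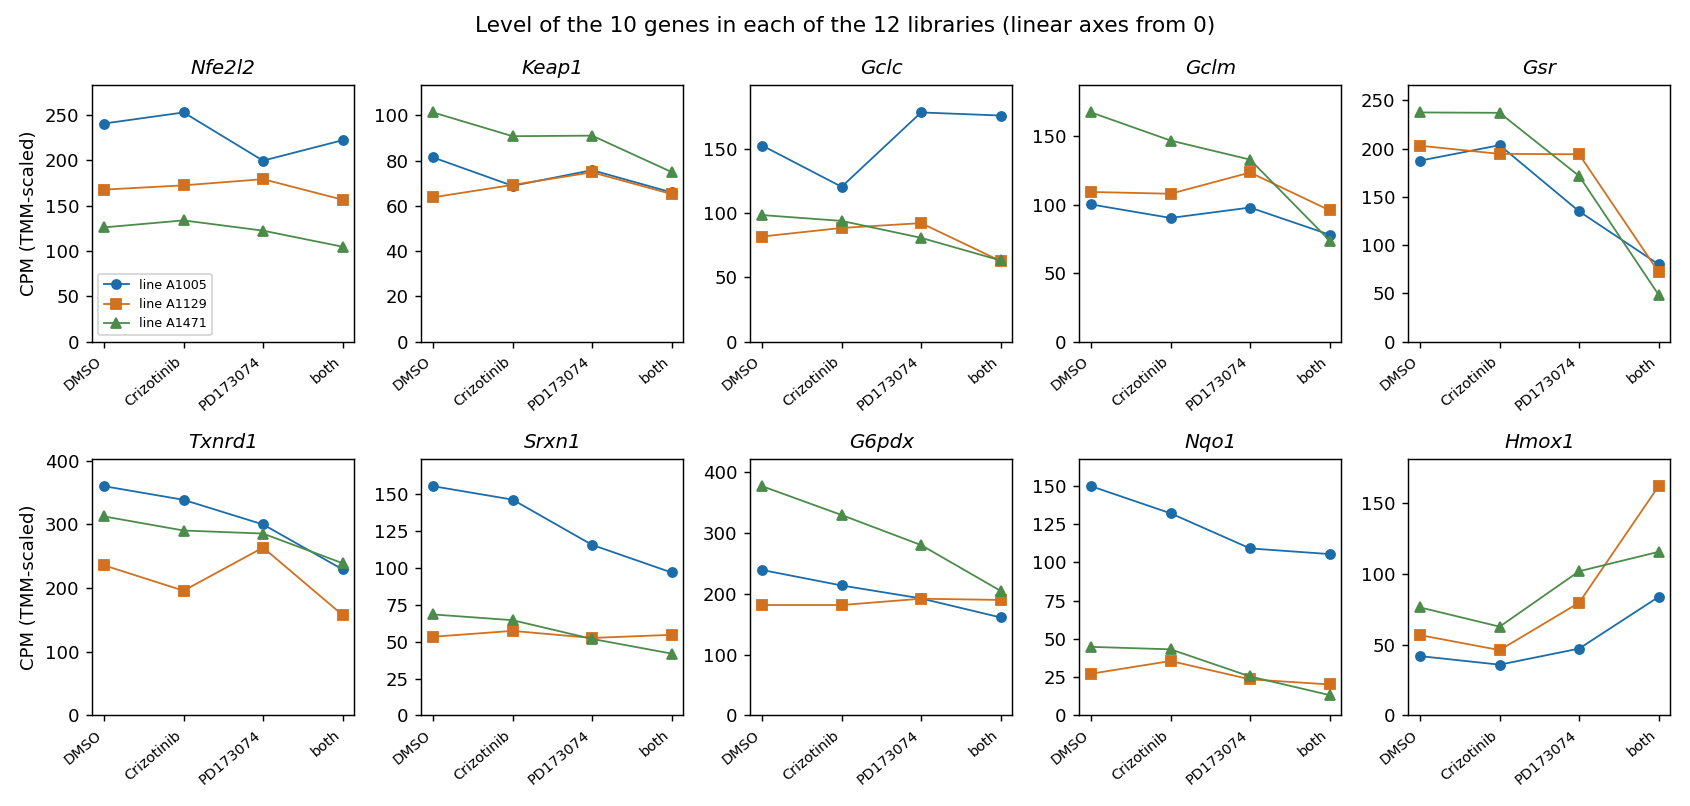
Level of each gene (CPM, linear axes from 0) by treatment, with 1 point per library and lines joining the libraries of A1005 (circles), A1129 (squares) and A1471 (triangles). In each line Gsr is lowest with the combination, at 48.6 to 80.1 CPM, and Hmox1 highest, at 83.6 to 162 CPM, and the A1005 line stands above the other two lines for Nqo1 and Srxn1 throughout.

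Among the regulators, Nfe2l2 (chr2:75675513-75704641, mm10) was at 240.3, 168 and 126 CPM with DMSO and at 222, 156 and 105 CPM with both inhibitors, in the order A1005, A1129, A1471 used throughout. The groups overlapped widely, because the lines differed more than the treatments. Its log2 change was −0.14 ± 0.35 (SE, edgeR adjusted p = 0.845), and −0.16 ± 0.10 with the line as a block (edgeR adjusted p = 0.193). Keap1 (chr9:21229730-21239361) went from 81.4, 63.8 and 101 CPM to 66.0, 65.2 and 75.0 CPM. It was lower in A1005 and A1471 and nearly level in A1129, with a log2 change of −0.26 ± 0.19 (edgeR adjusted p = 0.416; −0.24 ± 0.10 and adjusted p = 0.0685 with the block). An antisense transcript, Gm16754, shares 510 exonic bases with Keap1 and had 8 to 132 counts, and the sources used here do not give whether reads were counted by strand.

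In the glutathione branch, Gclc and Gclm encode the catalytic and the modifier subunit of glutamate-cysteine ligase, the first step of glutathione synthesis. Gclc (chr9:77754535-77794485) was at 153, 81.8 and 98.4 CPM with DMSO and at 176, 62.7 and 63.2 CPM with the combination. It stood higher in A1005 and lower in A1129 and A1471, and neither fit called it (log2 change −0.14 ± 0.45 and edgeR adjusted p = 0.885, −0.25 ± 0.19 and 0.287 with the block). Leaving out A1005, the line in which it was higher, from the blocked fit, Gclc fell by 0.50 on the log2 scale (edgeR adjusted p = 0.0158). Leaving out A1129 or A1471 instead gave edgeR adjusted p of 0.579 and 0.875. These fits were added after the values were seen. Gclm (chr3:122245557-122270732) went from 100.1, 109 and 167 CPM to 78.1, 95.8 and 73.8 CPM, so that all 3 combination libraries lay below all 3 DMSO libraries. Its log2 change was −0.60 ± 0.24 (edgeR adjusted p = 0.133), and it fell by 0.56 ± 0.16 on the log2 scale with the line as a block (edgeR adjusted p = 0.0149). Without A1471 the blocked change was −0.26 with an edgeR adjusted p of 0.103. The subunits thus parted in A1005, where the log2 change was −0.36 for Gclm and 0.20 for Gclc. Gclm shares 296 exonic bases with Gm17494 on the other strand, which had 0 to 93 counts. It also shares 244 with the pseudogene Gm6061 on its own strand, which had 5 to 15 counts.

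Gsr (chr8:33652523-33698163) had the lowest p of the 10 genes in the comparison of the combination with DMSO. With Crizotinib alone it was at 204, 195 and 237 CPM, and with PD173074 alone at 135, 194 and 172 CPM. Only the combination left all 3 libraries below every DMSO library. It fell by 1.64 ± 0.21 on the log2 scale (SE, edgeR adjusted p = 0.00134), with within-line log2 changes of −1.23 in A1005, −1.49 in A1129 and −2.29 in A1471. Leaving out A1129 gave an edgeR adjusted p of 0.0506 in the unpaired fit and leaving out A1471 gave 0.0635, whereas with the block every pair of lines passed.

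In the thioredoxin branch, Txnrd1 (chr10:82833951-82897712) encodes the reductase that recycles thioredoxin. It was at 360, 236 and 313 CPM with DMSO and at 229, 158 and 239 CPM with the combination. The ranges of the groups overlapped, but each line was lower than its own DMSO library, by log2 changes of −0.65, −0.58 and −0.39. The fitted log2 change was −0.54 ± 0.24 (edgeR adjusted p = 0.175) and −0.54 ± 0.12 with the block (edgeR adjusted p = 0.0033). Srxn1 (chr2:152105516-152111376) encodes sulfiredoxin, which repairs overoxidised peroxiredoxins, and went from 155, 53.3 and 68.4 CPM to 96.8, 54.6 and 41.9 CPM. It was lower in A1005 and A1471 and nearly level in A1129. Its log2 change was −0.52 ± 0.54 (edgeR adjusted p = 0.590) and −0.45 ± 0.13 with the block (edgeR adjusted p = 0.0165). With the block and without A1005 the adjusted p was 0.166, and without A1471 it was 0.225.

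G6pdx (chrX:74409483-74429194) encodes glucose-6-phosphate dehydrogenase, which makes NADPH in the pentose phosphate pathway. It was at 239, 182 and 377 CPM with DMSO and at 161, 190.1 and 205 CPM with the combination. A1005 and A1471 were lower and A1129 was not. The log2 change was −0.52 ± 0.31 (edgeR adjusted p = 0.299) and −0.46 ± 0.15 with the block (edgeR adjusted p = 0.0257). With the block and without A1005 the adjusted p was 0.161, and without A1471 it was 0.313. G6pdx shares 418 exonic bases with Ikbkg on the other strand, which had 938 to 2245 counts. The overlap may have affected the counts of both genes if strand was not used. The autosomal copy of G6pdx, G6pd2, had 1 to 10 counts.

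Nqo1 (chr8:107388225-107403206) encodes NAD(P)H quinone dehydrogenase 1, a much used marker of Nrf2 activity. It was at 149.6, 27.2 and 44.8 CPM with DMSO and at 105, 20.2 and 13.3 CPM with the combination. All 3 lines were lower, by within-line log2 changes of −0.51, −0.43 and −1.75, although the A1005 library with the combination still lay above the other two DMSO libraries. The log2 change was −0.67 ± 0.98 (edgeR adjusted p = 0.717) and −0.84 ± 0.23 with the block (edgeR adjusted p = 0.0101). With the block and without A1471 it was −0.46 with an edgeR adjusted p of 0.0594.

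Hmox1 (chr8:75093621-75100589) encodes haem oxygenase 1, a target of Nrf2 that is repressed by Bach1. With Crizotinib alone it was at 35.8, 46.1 and 62.6 CPM, below DMSO in each line, and with PD173074 alone at 47.1, 79.5 and 102 CPM, above DMSO in each line. All 3 combination libraries lay above all 3 DMSO libraries. The log2 change from DMSO was 1.05 ± 0.36 (edgeR adjusted p = 0.0815), and with the block Hmox1 rose by 1.06 ± 0.17 (edgeR adjusted p = 5.3e-04). In the fit with the block, each pair of lines gave an edgeR adjusted p between 0.00358 and 0.00699.

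Counting libraries rather than fits, 3 of the 10 genes had combination libraries that did not overlap with DMSO, against 29.9% of all tested genes. They were Hmox1 (higher), Gclm and Gsr (lower). The change had the same direction in all 3 lines for 6 of the 10 genes (Nfe2l2, Nqo1, Hmox1, Gclm, Txnrd1 and Gsr), against 66.7% of all tested genes. Both shares are near their backgrounds.

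**Figure D2:**
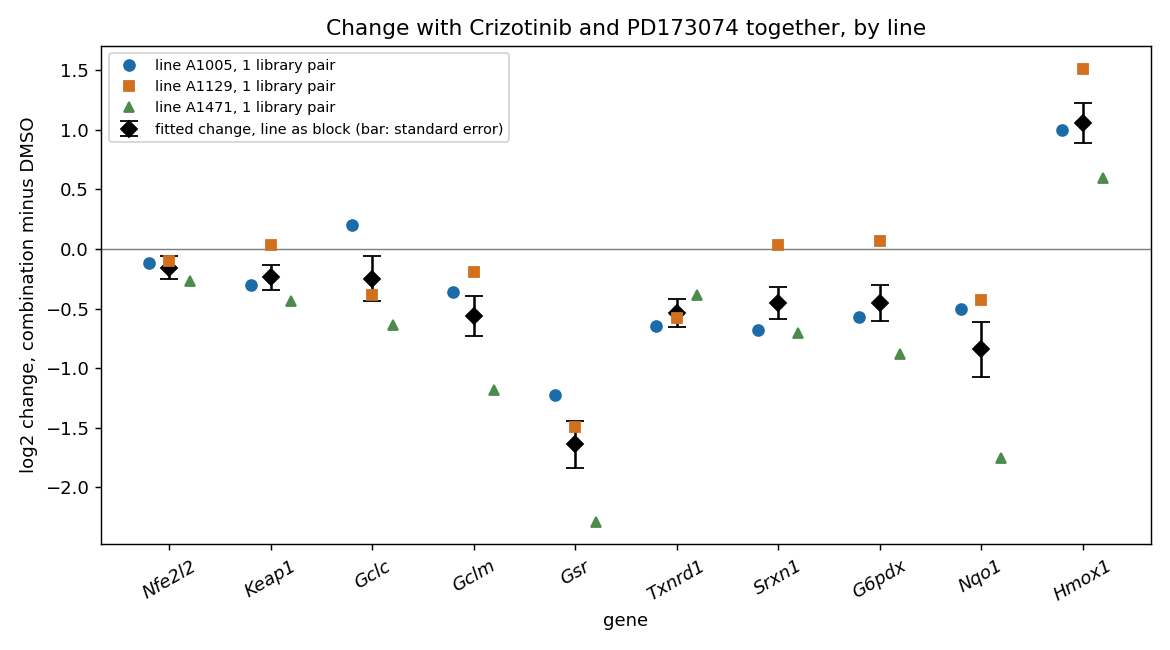
Log2 change of CPM from DMSO to the combination for each gene, with 1 symbol per line (1 library pair each), and the fitted change with the line as a block as a diamond with its standard error. Gsr lies lowest in each line (−1.23 to −2.29) and Hmox1 highest (0.60 to 1.51), and A1471 gives the lowest value of the 3 lines for every gene but Txnrd1.

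With Crizotinib alone, 0 of the 10 genes passed in either edgeR fit, against 0% of all tested genes, and 0 of 10 reached an unadjusted p under 0.05. Fitted log2 changes were −0.27 (Hmox1) to 0.07 (Nfe2l2). DESeq2 and limma-voom also called 0. With PD173074 alone, 0 of 10 passed in both fits, against 0% of all genes unpaired and 2.14% with the block, and DESeq2 and limma-voom called 0 as well. Its log2 changes were −0.49 (Nqo1) to 0.39 (Hmox1). An unadjusted p under 0.05 was reached by 0 genes unpaired and by 1 with the block, which was Nqo1 (edgeR adjusted p = 0.306). Of all 13836 tested genes, 307 reached it unpaired and 2175 with the block. Within lines, Nqo1 was lower with PD173074 by 0.46 in A1005, 0.21 in A1129 and 0.82 in A1471 on the log2 scale. No gene of the 10 had single-agent libraries that stood apart from DMSO, against 1.73% of all tested genes for Crizotinib and 6.42% for PD173074.

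Against the single agents, the combination was compared with libraries other than DMSO. Compared with Crizotinib alone, Hmox1 rose by 1.32 ± 0.36 (edgeR adjusted p = 0.0382) and Gsr fell by 1.66 ± 0.21 on the log2 scale (edgeR adjusted p = 0.00134), which were 2 of 10 genes against 13.2% of all tested genes. Hmox1 did not pass there without A1129 (edgeR adjusted p = 0.344) or without A1471 (0.142), and Gsr did not without A1471 (0.0619). With the block, Nqo1, Gclm, Txnrd1 and Srxn1 also fell, giving 6 of 10 against 53.4%. Compared with PD173074 alone, Gsr fell by 1.32 ± 0.21 (edgeR adjusted p = 0.00661), 1 of 10 against 4.77%. That call was lost without A1129 (edgeR adjusted p = 0.219) and without A1471 (0.129). With the block, Hmox1 (0.70 ± 0.17, edgeR adjusted p = 0.00896), Txnrd1 (−0.47 ± 0.12, 0.0113) and Gclm (−0.49 ± 0.16, 0.0372) joined it, 4 of 10 against 39.8%. The comparisons with DMSO and with the single agents share the combination libraries.

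Whether the combination exceeded the sum of its parts was tested as the departure from additivity, the log2 change with the combination minus both single-agent log2 changes. For Gsr the single agents summed to −0.36, −0.13 and −0.47 in A1005, A1129 and A1471, whereas the combination gave −1.23, −1.49 and −2.29. For Hmox1 the sums were −0.05, 0.19 and 0.13, and the combination gave 0.999, 1.51 and 0.60. Gsr thus lay below the sum and Hmox1 above it in 3 of 3 lines. In the unpaired fit neither departure passed (Gsr −1.33 ± 0.30, edgeR adjusted p = 0.0817, and Hmox1 0.93 ± 0.50, adjusted p = 0.672), and 0 of 10 genes did, against 0.918% of all tested genes. That unpaired fit gave 1 of 10 genes an unadjusted p under 0.05, against 1250 of all 13836 tested genes, and DESeq2 called 1 (Gsr). With the block both passed (Gsr −1.32 ± 0.27, edgeR adjusted p = 0.0126, and Hmox1 0.96 ± 0.24, adjusted p = 0.0249), 2 of 10 against 16.2%. Leaving out a line from the blocked fit kept Gsr past the threshold without A1005 (edgeR adjusted p = 0.0158) but not without A1129 (0.107) or A1471 (0.0612), and Hmox1 passed in none of the 3 (0.0948, 0.108 and 0.0587). The departures of the other 8 genes were −0.37 to −0.10 with the block and were not called.

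**Figure D3:**
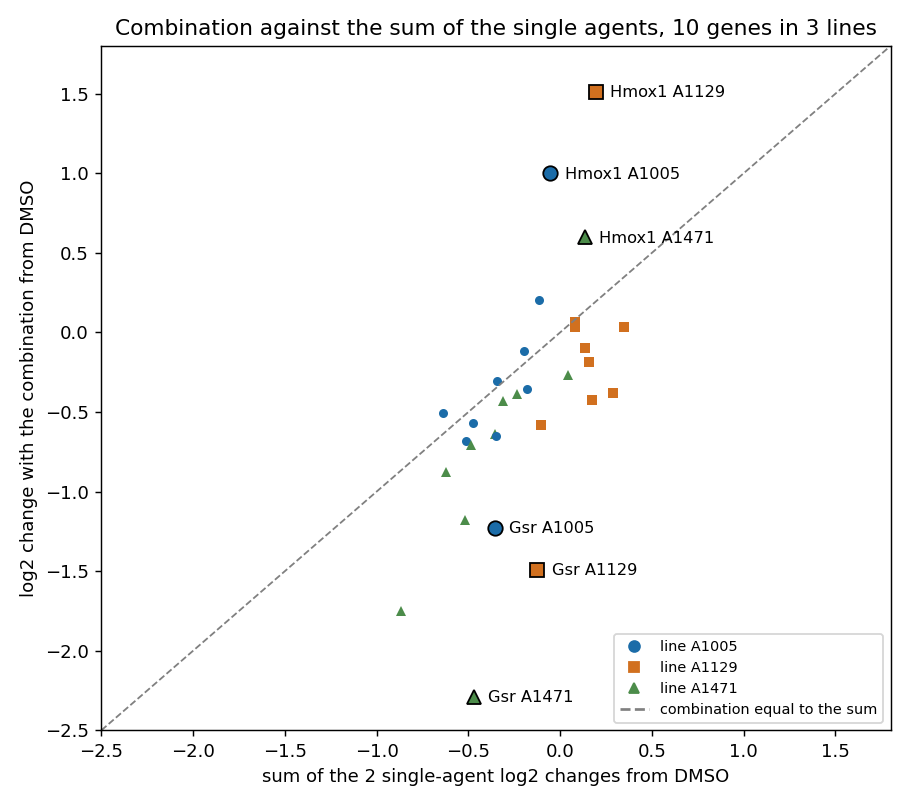
Log2 change from DMSO with the combination (vertical axis) against the sum of the Crizotinib and PD173074 log2 changes (horizontal axis), with 1 symbol for each of 10 genes in 3 lines, and a dashed line where both are equal. The outlined symbols are Gsr (departures −0.87 to −1.82) and Hmox1 (0.46 to 1.32), and most of the other symbols lie nearer the dashed line.

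The lines were compared next, because 1 library per treatment came from each. The p-values for lines measure the spread between the 4 libraries of each line after a treatment term, and do not extend to other tumours. Nqo1 averaged 124 ± 20.7 CPM in A1005, 26.6 ± 6.58 in A1129 and 31.7 ± 15.1 in A1471 (SD over n = 4 treatments), a 4.65-fold span between the highest and lowest line. Nfe2l2 averaged 229 ± 23.1, 169 ± 9.51 and 122 ± 12.3 CPM, and it was the only one of the 10 genes for which the libraries of every line stood apart from those of both other lines, against 8.04% of all tested genes. Its order was A1005, A1129, A1471, and each neighbouring step passed the test.

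A1005 held the higher level of several targets. Compared with A1005, A1129 was lower in Nqo1 (log2 difference −2.24 ± 0.20), Srxn1 (−1.21 ± 0.12), Gclc (−0.97 ± 0.17), Txnrd1 (−0.53 ± 0.10) and Nfe2l2 (−0.44 ± 0.08) and higher in Hmox1 (0.64 ± 0.15), with edgeR adjusted p of 6.3e-06 to 0.00347. These were 6 of 10 genes against 57.9% of all genes tested between lines. A1471 differed from A1005 in 8 of 10 genes, also against 57.9%. It was lower in Nqo1 (−2.07 ± 0.20), Srxn1 (−1.18 ± 0.12), Gclc (−0.91 ± 0.17) and Nfe2l2 (−0.91 ± 0.08), and higher in Hmox1 (0.82 ± 0.15), G6pdx (0.55 ± 0.13), Gclm (0.47 ± 0.14) and Keap1 (0.29 ± 0.09). The Gclm call was lost without DMSO (edgeR adjusted p = 0.0787), Crizotinib (0.1001) or PD173074 (0.0595) libraries, and the Keap1 call without Crizotinib (0.102). Between A1471 and A1129, 4 of 10 genes differed against 46.4%, namely Nfe2l2 (−0.48 ± 0.08), Keap1 (0.39 ± 0.09), Txnrd1 (0.42 ± 0.10) and G6pdx (0.64 ± 0.13), and 7 did when the combination libraries were left out, with Nqo1, Hmox1 and Gclm added. Gsr had the smallest span between line means, 1.15-fold, and was called in none of the 3 line comparisons. Without the combination libraries, it stood 0.30 higher in A1471 than in A1005 on the log2 scale (edgeR adjusted p = 0.0280). Hmox1 and Nfe2l2 were ordered oppositely at their ends, with DMSO levels of 41.8 and 76.2 CPM for Hmox1 and 240.3 and 126 CPM for Nfe2l2 in A1005 and A1471.

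To compare levels between genes, CPM were divided by the length of the union of exons in kb. With DMSO, the length-scaled level was 86.4 ± 32.6 CPM per kb for G6pdx, 76.0 ± 9.27 for Gsr, 47.6 ± 42.6 for Nqo1, 46.9 ± 15.3 for Nfe2l2 and 42.7 ± 8.85 for Txnrd1 (SD, n = 3 lines). Below these came Hmox1 (33.3 ± 9.84), Srxn1 (32.7 ± 19.5), Gclc (29.5 ± 9.83), Gclm (20.0 ± 5.79) and Keap1 (17.5 ± 4.0) in the same unit. Each neighbouring pair in this order differed by less than the larger of its 2 SDs. By the longest transcript instead, Txnrd1 was at 83.6, Nfe2l2 at 71.9 and Keap1 at 22.7 CPM per kb, so the place of Txnrd1 and Nfe2l2 in the order depends on the length used.

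A further 69 genes of redox metabolism were listed by role, of which 68 were tested (Gpx7 was not). With the combination, 3 of them rose and 3 fell in the unpaired fit, against 6.1% and 8.28% of all tested genes, and 20 rose and 21 fell with the block, against 28.6% and 26.2%. The median log2 change of the list was −0.08 unpaired. With Crizotinib alone and with PD173074 alone, 0 of the 68 passed in either fit. Of all tested genes, 0% passed with Crizotinib in both fits, and with PD173074 0% unpaired and 2.14% with the block. The unadjusted p was under 0.05 for 0 and 1 of the 68 unpaired and for 1 and 16 with the block. Over all 13836 tested genes, these counts were 18 and 307 unpaired and 258 and 2175 with the block. For genes called only with the block, the blocked log2 change is given first and the unpaired adjusted p follows. Chac1, Gsk3b, Btrc, Mafk, Gstp1, Abcc1, Ggct, Nadk, Blvra, Slc40a1 and Cbr1 were named after their values were seen.

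The regulators around Nrf2 held all 3 genes that rose unpaired. Sqstm1 (p62, an autophagy receptor that can sequester Keap1) went from 541, 340.2 and 374 CPM to 1088, 926 and 776 CPM, and rose by 1.15 ± 0.23 (edgeR adjusted p = 0.00899). Bach1, a repressor that competes with Nrf2 at Hmox1, went from 50.5, 47.7 and 39.9 CPM to 77.2, 107 and 89.9 CPM and rose by 0.99 ± 0.16 (edgeR adjusted p = 0.00425). Nfe2l1, which encodes the related factor Nrf1, went from 377, 264 and 360.2 CPM to 699, 588 and 674 CPM and rose by 0.97 ± 0.24 (edgeR adjusted p = 0.0243). For each of these genes every combination library lay above every DMSO library. The groups did not overlap, in either direction, for 29.9% of all tested genes. Maff, a small Maf partner, went from 102, 24.9 and 29.9 CPM to 55.0, 13.6 and 10.4 CPM, with a log2 change of −1.06 ± 0.16 with the block (edgeR adjusted p = 3.6e-04; unpaired 0.515). Of the 10 genes in this role, 5 rose and 2 fell with the block, against 28.6% and 26.2% of all tested genes. The others called were Gsk3b (0.68, unpaired edgeR adjusted p = 0.169) and Btrc (0.39, 0.566), whose products mark Nrf2 for degradation, and Mafk (−0.46, 0.0903).

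In glutathione supply and use, 17 of 18 listed genes were tested. With the block 6 rose and 5 fell, against 28.6% and 26.2% of all tested genes. Slc7a11, the cystine transporter subunit that feeds glutathione synthesis, went from 359.6, 185 and 19.6 CPM to 99.8, 19.2 and 2.87 CPM, with a log2 change of −2.45 ± 0.40 with the block (edgeR adjusted p = 6.1e-04; unpaired 0.368). Its level differed widely between lines and was lower in each of them. The glutathione transferase genes Mgst1, Gstm1 and Gstm2 rose with the block. Mgst1 went from 119, 33.5 and 5.66 CPM to 264, 172 and 74.4 CPM (2.32 ± 0.42 with the block, edgeR adjusted p = 0.0011; unpaired 0.378), and Gstm1 from 153, 45.2 and 109 CPM to 341, 221 and 244 CPM (1.54 ± 0.19, 1.1e-04; unpaired 0.088). Gstm2 went from 47.8, 0.592 and 1.87 CPM to 118, 4.14 and 7.24 CPM (1.82 ± 0.28, edgeR adjusted p = 4.6e-04; unpaired 0.737). Gstm1 and Gstm2 are close paralogs, and reads may be split between them. The 5 that fell with the block also held another transferase, Gstp1 (−0.50, unpaired edgeR adjusted p = 0.343), and Abcc1 (−0.74, 0.277) and Ggct (−0.86, 0.102). Chac1, a glutathione-degrading enzyme, was the gene of this role that passed unpaired, at 12.5 ± 2.33 CPM with DMSO and 5.99 ± 1.05 CPM with the combination (SD, n = 3), a log2 change of −1.06 ± 0.24 (edgeR adjusted p = 0.0179).

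Among 11 thioredoxins and peroxiredoxins, 1 rose and 6 fell with the block, against 28.6% and 26.2% of all tested genes. Txn1, which encodes thioredoxin 1, the substrate of Txnrd1, went from 564, 382 and 553 CPM to 328, 202 and 286 CPM and fell by 0.88 ± 0.25 on the log2 scale (edgeR adjusted p = 0.0445). Its combination libraries all lay below its DMSO libraries, where 29.9% of all tested genes had groups that did not overlap. The mitochondrial peroxiredoxin Prdx3 went from 80.2, 53.8 and 82.3 CPM to 56.3, 33.8 and 48.2 CPM (−0.65 ± 0.10 with the block, edgeR adjusted p = 3.2e-04; unpaired 0.134). Prdx6 went from 605, 305 and 460.1 CPM to 443, 155 and 328 CPM (−0.63 ± 0.12 with the block, edgeR adjusted p = 0.00157; unpaired 0.430). Prdx2 was the member of this role that rose, from 194, 381 and 262 CPM to 314, 406 and 495 CPM (0.58 ± 0.15 with the block, edgeR adjusted p = 0.00741; unpaired 0.302).

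Of 7 other genes that supply NADPH, 1 rose and 2 fell with the block, against 28.6% and 26.2% of all tested genes. Unpaired, 0 passed. Besides Pgls, Nadk fell (−0.38 with the block, unpaired edgeR adjusted p = 0.498). Idh1, the cytosolic NADP-dependent isocitrate dehydrogenase, went from 190.1, 328 and 138 CPM to 305, 610 and 386 CPM (1.03 ± 0.21 with the block, edgeR adjusted p = 0.00189; unpaired 0.221). Pgls, which follows G6pdx in the pentose phosphate pathway, went from 45.5, 72.0 and 71.7 CPM to 40.3, 41.4 and 52.9 CPM (−0.46 ± 0.13 with the block, edgeR adjusted p = 0.0125; unpaired 0.287). Me1 and Tkt, with blocked log2 changes of −0.27 and −0.35, were not called in either fit (edgeR adjusted p = 0.214 and 0.116 with the block). As with G6pdx, both were lower in A1005 and A1471 and not in A1129.

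Among 8 genes of haem and iron, which act beside Hmox1, 3 rose and 3 fell with the block and 0 passed unpaired. Over all tested genes the shares with the block were 28.6% and 26.2%. The 2 ferritin chains, which store the iron that haem oxygenase frees, moved apart. Ftl1 (light chain) went from 2422, 874 and 865 CPM to 4061, 1851 and 1988 CPM (1.01 ± 0.12 with the block, edgeR adjusted p = 9.2e-05; unpaired 0.324), and Fth1 (heavy chain) from 10790, 8449 and 4234 CPM to 8434, 5212 and 2811 CPM (−0.54 ± 0.15, 0.0113; unpaired 0.584). Each chain moved in its direction in all 3 lines. Slc48a1, a haem transporter, went from 456, 114 and 236 CPM to 283, 93.0 and 110 CPM (−0.68 ± 0.14 with the block, edgeR adjusted p = 0.00211; unpaired 0.538). Fech, the last enzyme of haem synthesis, went from 49.7, 36.6 and 53.5 CPM to 56.6, 63.6 and 82.6 CPM (0.54 ± 0.12 with the block, edgeR adjusted p = 0.00303; unpaired 0.158). The others called with the block were the biliverdin reductase Blvra (−0.42, unpaired edgeR adjusted p = 0.577) and the iron exporter Slc40a1 (unpaired 0.128), which had 0 to 40 counts per library.

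Among 10 detoxifying reductases and conjugating enzymes, 2 rose and 3 fell with the block, against 28.6% and 26.2% of all tested genes. Cbr1, a carbonyl reductase, rose by 0.43 with the block (unpaired edgeR adjusted p = 0.392). Ugdh, which makes UDP-glucuronate for glucuronidation, went from 142, 171 and 119 CPM to 64.3, 101 and 69.6 CPM and fell by 0.88 ± 0.25 on the log2 scale in the unpaired fit (edgeR adjusted p = 0.040). Nqo2, the quinone reductase related to Nqo1, went from 69.2, 34.7 and 45.1 CPM to 33.0, 13.2 and 20.3 CPM (−1.20 ± 0.12 with the block, edgeR adjusted p = 2.8e-05; unpaired 0.127). Akr1b8, an aldo-keto reductase, went from 135, 135 and 108 CPM to 76.4, 92.9 and 83.8 CPM (−0.57 ± 0.16 with the block, edgeR adjusted p = 0.0107; unpaired 0.0735). Ephx1, an epoxide hydrolase, went the other way, from 42.2, 1.25 and 6.77 CPM to 73.6, 7.65 and 33.6 CPM (1.84 ± 0.37 with the block, edgeR adjusted p = 0.00206; unpaired 0.676).

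The superoxide dismutases and catalase, which remove superoxide and hydrogen peroxide directly, gave 2 higher and 0 lower of 5 with the block. Over all tested genes these shares were 28.6% and 26.2%. Catalase (Cat) went from 66.0, 36.7 and 40.1 CPM to 101, 81.1 and 101 CPM (1.04 ± 0.14 with the block, edgeR adjusted p = 2.1e-04; unpaired 0.0565). Ccs, the copper chaperone of Sod1, went from 19.0, 33.0 and 20.9 CPM to 31.2, 43.9 and 41.4 CPM (0.70 ± 0.13 with the block, edgeR adjusted p = 0.00127; unpaired 0.147). Sod2 and Sod3 were not called in either fit, with blocked log2 changes of 0.03 and 0.51 (edgeR adjusted p = 0.919 and 0.0891). Sod2 was higher with the combination in A1005 and lower in A1129 and A1471.

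**Figure D4:**
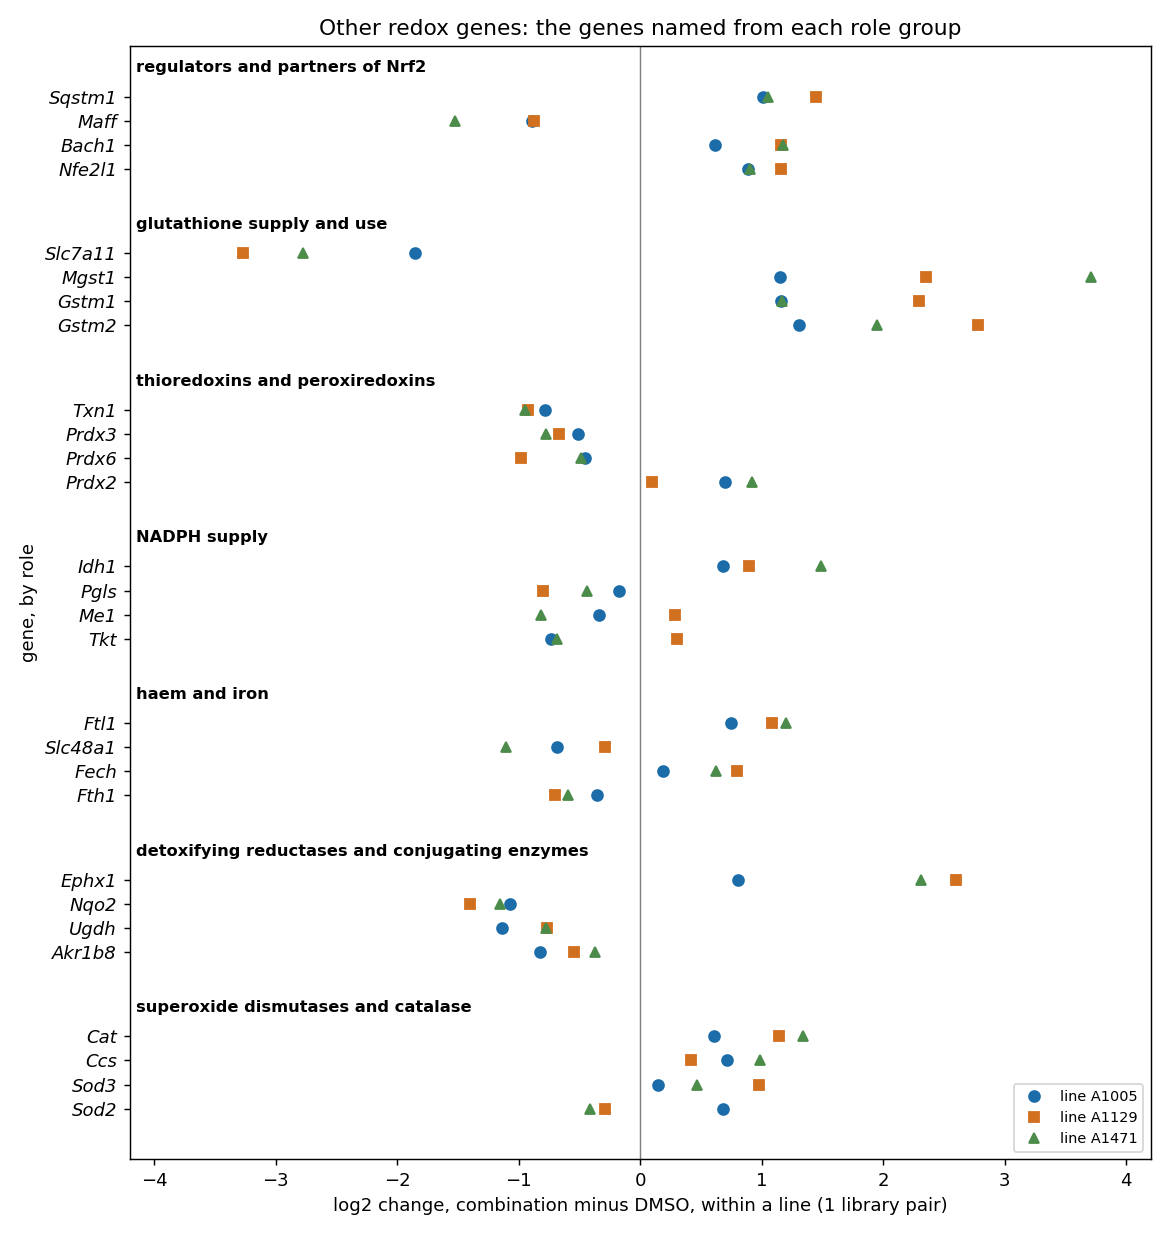
Log2 change from DMSO to the combination within each line (log2 of CPM plus 0.01, 1 library pair per symbol). The symbols cover the redox genes of the list named above, grouped by role, except those named after their values were seen. Slc40a1 is among the genes left out. Among the genes shown, Slc7a11 lies furthest left in each line, and furthest right are Mgst1 in A1471 and Gstm2 in A1005 and A1129. Sqstm1, Bach1 and Nfe2l1 lie right of 0 in all 3 lines, and Txn1, Prdx3 and Prdx6 lie left of 0 in all 3.

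Finally, genes were sought whose levels followed those of a member most closely, over the 12 libraries on log2 CPM centred within each line, among the 9611 genes whose log2 CPM averaged 3 or more. For Hmox1 these were Chmp3 (Pearson r = 0.980), Hadha (0.980) and Ercc4 (0.979). The closest to Nqo1 were Gata2 (Pearson r = 0.979), Fah (0.977) and Mia2 (0.975), and the closest to Txnrd1 were Hnrnpm (0.954), Brpf1 (0.949) and Ipo9 (0.948). Nfe2l2 had less close neighbours in Sec24b (0.930), Klhl2 (0.921) and Wwc1 (0.911). The points share their libraries, depth and treatments, and these values are descriptions.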

How the data were processed

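Tumoursphere RNA of 3 mouse cell lines under 4 treatments was sequenced on a NextSeq500 by the authors. According to the submitters' processing notes and the paper, bcl2fastq, STAR and HTSeq and the build mm10 were used. The authors deposited raw counts, whole numbers of reads per gene with no normalization. Versions, the strand setting of the counting and the annotation release are not given in the sources used here. Groups came from the labels' treatment, replicates from the labels' cell line, and the dose from the paper. The members and the lists of other genes were chosen with earlier results of these data known.

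Low genes were removed by filterByExpr (at least 10 counts and 15 in total) and libraries were scaled by TMM. The main test was edgeR's quasi-likelihood F-test (edgeR 4.0.16, run in R 4.3.3) of treatment over all 12 libraries, unpaired as in the study's methods, with Benjamini-Hochberg adjustment over all 13836 genes (13475 between lines) and a threshold of 0.05. SE is the absolute log2 change divided by the square root of F. P-values measure only the spread between these libraries. Libraries of 1 line come from the same cell line, so the line pairs them: their deviations from treatment means correlated at 0.766 to 0.962 over 18 same-line pairs (mean 0.871) and at a mean of −0.422 over 36 pairs of different lines. The fit with the line as a replicate block is therefore printed beside each result whose call it changes. Lines were compared in a fit with a treatment term.

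Log2 CPM used a prior count of 2. The genes named were the 10 members, in each role of the list up to 4 genes with the largest absolute log2 change in combination versus DMSO among those averaging 3 or more in log2 CPM, and the 3 genes most like each of 4 members. Other genes of the list were named after their values were seen, as stated there. Gene positions and exon lengths came from GENCODE of the same build, which held 55394 of the 55573 genes. Promoter sequences are RefSeq's. Alternatives were DESeq2 1.42.0, limma-voom (limma 3.58.1), other scalings and filters, only the groups compared, an absolute log2 change of at least 1.5, and leaving out each line. The block with DESeq2, with voom and without each line was added after seeing the data. Scripts were tested on simulated data. No 2 libraries were identical (0 of 66 pairs). Plots used Python 3.11.15 with matplotlib 3.10.9.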

Additional observations from a re-analysis of the deposited data

Results flagged for a closer look

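The effect of Crizotinib beside PD173074 differed from its effect alone for 2 of the 10 genes, by the test of the interaction with the line as a block, against 16.2% of all tested genes. The difference in log2 change was −1.32 for Gsr (edgeR adjusted p = 0.0126, in the same direction in 3 of 3 lines) and 0.96 for Hmox1 (edgeR adjusted p = 0.0249, 3 of 3 lines). Neither passed in the unpaired edgeR fit (adjusted p = 0.0817 for Gsr and 0.672 for Hmox1). In the blocked edgeR fit, leaving out A1005, A1129 or A1471 gave adjusted p of 0.0158, 0.107 and 0.0612 for Gsr and of 0.0948, 0.108 and 0.0587 for Hmox1.

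Gclc moved in opposite directions between lines with the combination. From 1 library pair each, the log2 change was 0.20 for A1005, against −0.38 for A1129 and −0.64 for A1471, and the difference between lines was not tested. Of the 10 genes, 4 had both directions over the lines, and Gclc was the only one with a log2 change of at least 0.2 in each line. No single library was tested for standing apart, because each group holds 3.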

How the results depend on the processing

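With the line as a replicate block, 7 members were called for the combination against DMSO in place of 1, 4 in place of 1 against PD173074, 6 in place of 2 against Crizotinib and 2 in place of 0 for the departure, and the block changed no other count. In the same order, the block called 54.8%, 39.8%, 53.4% and 16.2% of all tested genes, and the unpaired fit 14.4%, 4.77%, 13.2% and 0.918%. Shares for the settings below are not given here, so their counts of members have no background beside them. DESeq2 called 2 against DMSO and 1 departure. With the block, DESeq2 and limma-voom each called 7 and 2, and edgeR without A1005, A1129 and A1471 called 6, 8 and 3 against DMSO and, without A1005, 1 departure. Leaving out a line without the block gave 0 to 1 against DMSO, 0 to 1 against PD173074 and 0 to 2 against Crizotinib. Using only the groups compared gave 0 against PD173074 and 1 against Crizotinib, no filter gave 1 against Crizotinib, and a log2 change of at least 1.5 gave 0 against PD173074 and 1 against Crizotinib. Between lines that minimum left 1, 1 and 0 calls, omitting the treatment term left 5 for A1471 against A1005, and leaving out a treatment gave 4 to 7 for A1471 against A1129. Causes of these changes were not tested beyond the fewer libraries or genes that each setting holds.

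Direction turned 34 times over all results and settings, each with an edgeR, DESeq2 or limma adjusted p of at least 0.40 and none called. For Crizotinib against DMSO, the log2 change of Nqo1 was 0.039 with the block and 0.0649 with limma-voom. For Gclc, combination against Crizotinib, it was 0.0209 with DESeq2, 0.0206 with its size factors, 0.0381 with total counts, 0.0355 with at least 10 counts in every library and 0.0082 with only the groups compared. The departure of Gclc was 0.0301 with the block without A1129. Without the treatment term Gsr was 0.0666 and with total counts Srxn1 was −0.019 for A1471 against A1129. Leaving out a line spanned, against DMSO, −0.51 to 0.0319 for Gclc with the combination; −0.16 to 0.13 (Nqo1), −0.24 to 0.0201 (Gclc), −0.0947 to 0.0043 (Srxn1) and −0.0256 to 0.0462 (Gsr) with Crizotinib; and −0.18 to 0.043 (Nfe2l2), −0.13 to 0.0687 (Keap1), −0.0547 to 0.22 (Gclc), −0.21 to 0.10 (Gclm) and −0.19 to 0.0077 (Txnrd1) with PD173074. It spanned −0.20 to 0.0137 for Nfe2l2 against PD173074, −0.53 to 0.21 for Gclc against Crizotinib and −0.47 to 0.11 for its departure. Leaving out a treatment spanned −0.0454 to 0.19 for Gsr in A1129 against A1005, −0.0283 to 0.30 for Gsr in A1471 against A1005 and, in A1471 against A1129, −0.0057 to 0.38 (Nqo1), −0.0064 to 0.14 (Gclc), −0.0581 to 0.17 (Srxn1) and −0.15 to 0.11 (Gsr). Other scalings moved the median of all genes by at most 0.05. With 3 libraries per treatment, the unpaired fit counts differences between lines as spread. For the combination against DMSO, the SE was lower with the block for each of the 10 genes. It went from 0.98 to 0.23 for Nqo1, from 0.54 to 0.13 for Srxn1 and from 0.36 to 0.17 for Hmox1. Nqo1, Hmox1, Gclm, Txnrd1, Srxn1 and G6pdx were called there only with the block.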
